A study of Homo sapiens with 6 samples.

Results

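The noncoding snoRNA host genes are genes whose spliced transcripts encode no known functional protein and whose introns carry small nucleolar RNAs (snoRNAs). They were taken from the count table by name: every symbol made of SNHG and a number, together with GAS5, ZFAS1, DANCR and EPB41L4A-AS1. This gave 25 of 54261 symbols. Of these, 24 had at least 1 count, SNHG24 was at 0 in all 6 libraries, and 21 passed the low-count filter, which kept 13896 genes in all.

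The libraries came from T24, a long-established cell line of human bladder carcinoma. In the control group (n = 3) the cells carried the lentivirus HBLV-ZsGreen-PURO without a hairpin against a human gene named in the labels, and in the knockdown group (n = 3) they carried the same type of vector with hairpin number 2 against MTHFD2, an enzyme of mitochondrial folate metabolism. Both groups had been selected with puromycin and both vectors encode the green fluorescent protein ZsGreen. With 1 hairpin and no rescue among the libraries analysed here, effects of losing MTHFD2 and other effects of this hairpin cannot be told apart. The labels number the replicates without stating separate cultures, so the p-values measure only the spread between these libraries, which may be technical.

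MTHFD2 checked the labels: it was at 185, 188 and 181 CPM (counts scaled to library size) in control replicates 1 to 3 and at 26.7, 33.6 and 36.7 CPM in knockdown replicates 1 to 3, a log2 fold change of -2.51 ± 0.13 (SE; edgeR adjusted p = 1.8e-06). Libraries held 17801990 to 19978392 counts, and 3 counts, the most that a count of 0 allows, equal 0.149 to 0.171 CPM. Of the 13896 tested genes, 1053 fell and 1349 rose at an edgeR adjusted p under 0.05. Among 15 urothelial markers the keratin genes KRT7, KRT8 and KRT18 were abundant, while EPCAM averaged 0.288 CPM and CDH1 0.254 CPM in the control libraries, and KRT20 and UPK3A were at 0 throughout.

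SnoRNAs are short stable RNAs that guide chemical modification of ribosomal RNA. Box C/D snoRNAs guide methylation of ribose, and box H/ACA snoRNAs guide conversion of uridine to pseudouridine; related small Cajal body RNAs act on spliceosomal RNAs. Most human snoRNAs lie in introns and are trimmed from the excised intron after the host transcript is spliced, and the spliced transcripts of several noncoding hosts are known substrates of nonsense-mediated decay, the pathway that degrades RNA with an early stop codon. Many hosts start with a C followed by a run of pyrimidines, the 5′ terminal oligopyrimidine (TOP) start known from ribosomal protein genes.

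The start-site sequences of several members are shown here because 2 short motifs recur in them. Each window runs from 45 bases before the annotated start through the first 25 transcribed bases, 5′ to 3′ on the transcript's strand, from RefSeq on GRCh38.p14. Capitals mark TATAA (the core of a TATA box) between 45 and 15 bases before the start, and a C followed by at least 4 C or T near the start. SNHG12 lies at chr1:28581849-28581918 (minus strand), SNHG5 at chr6:85678709-85678778 (minus), SNHG7 at chr9:136728160-136728229 (minus) and SNHG8 at chr4:118278717-118278786 (plus). DANCR lies at chr4:52712349-52712418 (plus), SNHG1 at chr11:62855861-62855930 (minus) and ZFAS1 at chr20:49278597-49278666 (plus).
SNHG12: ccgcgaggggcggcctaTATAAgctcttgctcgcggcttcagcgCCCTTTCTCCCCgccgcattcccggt
SNHG5: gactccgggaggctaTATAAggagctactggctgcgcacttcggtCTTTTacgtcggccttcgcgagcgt
SNHG7: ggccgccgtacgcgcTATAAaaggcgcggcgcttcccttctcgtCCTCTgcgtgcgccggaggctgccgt
SNHG8: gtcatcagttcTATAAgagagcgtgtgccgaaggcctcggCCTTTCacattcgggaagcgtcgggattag
DANCR: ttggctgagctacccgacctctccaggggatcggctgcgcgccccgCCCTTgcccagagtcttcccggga
SNHG1: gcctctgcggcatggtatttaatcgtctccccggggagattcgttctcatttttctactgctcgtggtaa
ZFAS1: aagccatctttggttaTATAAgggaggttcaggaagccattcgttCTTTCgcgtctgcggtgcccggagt
SNHG12, SNHG5, SNHG7, SNHG8 and ZFAS1 held both motifs, DANCR held the pyrimidine run alone, and SNHG1 held neither as spelled here. A promoter was found in RefSeq for 18 of the 21 tested members. TATAA stood in that window in 6 of the 18 (33.3%), those 5 and SNHG19, against 4.13% of 35116 RefSeq promoters, 2.58% of the promoters of tested genes and 8.97% of 78 promoters of ribosomal protein genes. The pyrimidine run, with its C between 5 bases before and 10 bases after the start, was present in 11 of 18 members (61.1%), against 27.1% of all promoters and 82.1% of those of ribosomal protein genes. Both motifs were searched on the transcript strand only. The palindrome CACGTG, searched over the whole 300 bases, was in 1 of 18 members, SNHG7, against 7.26% of all promoters.

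In the knockdown libraries 8 of the 21 tested host genes were lower at an edgeR adjusted p under 0.05: DANCR, SNHG12, SNHG8, SNHG17, SNHG5, SNHG7, SNHG15 and SNHG1. The knockdown mean was 55.6% of the control mean for DANCR, the most reduced of these, and 69.5% for SNHG1, the least reduced. In RNA from whole cultures, a lower level in every cell and fewer cells that express a gene cannot be told apart. No tested member was higher by edgeR, by DESeq2 or at an unadjusted edgeR p under 0.05. Over all tested genes 7.58% were lower and 9.71% higher by the same edgeR rule. The members were picked by name with the knockdown against control fold changes known, so these counts describe it and are not independent evidence of its direction. The median log2 fold change was -0.43 over the 21 members and 0.01 over all tested genes, and 19 of the 21 lay below 0, as did 49.2% of all tested genes. In 12 members every knockdown library lay below every control library in CPM (19.0% of all tested genes did), and in none did every knockdown library lie above (20.1% did). The other 9 overlapped.

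**Figure D1:**
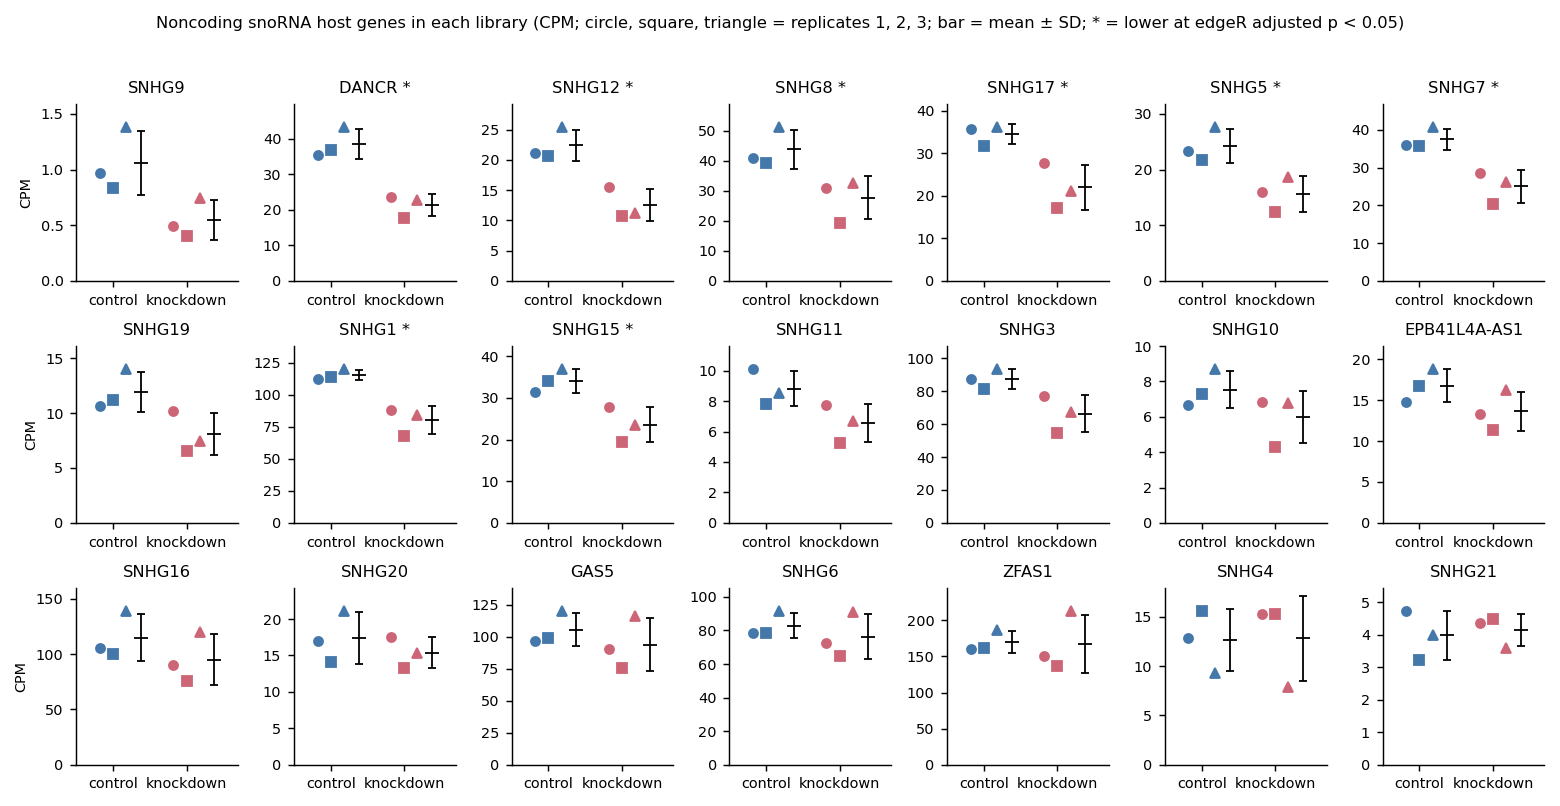
Expression of the 21 tested noncoding snoRNA host genes in each library (y axis, CPM from 0; each panel has its own scale). Blue symbols are control and red symbols knockdown libraries, with circle, square and triangle for replicates 1 to 3, bars for mean ± SD, and an asterisk for genes lower at an edgeR adjusted p under 0.05. In most panels the square of knockdown replicate 2 is the lowest point and the triangle of control replicate 3 the highest.

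Of 10 tested members whose introns hold only box H/ACA snoRNAs, 5 fell, with a median log2 fold change of -0.56. This and the other splits by snoRNA class were made after the values had been seen. DANCR (chr4:52712404-52720351, plus strand, GENCODE 29 on GRCh38), named for opposing differentiation and host of SNORA26, had 626, 708 and 816 counts in control replicates 1 to 3 and 476, 353 and 428 counts in knockdown replicates 1 to 3. Scaled to library size it was at 38.6 ± 4.13 CPM in control and 21.4 ± 3.19 CPM in knockdown (SD, n = 3 each), a log2 fold change of -0.85 ± 0.14 (SE; edgeR adjusted p = 0.00272). All 3 knockdown libraries lay below all 3 control libraries, with knockdown replicate 2 the lowest at 17.8 CPM. SNHG8 (chr4:118278709-118279823, plus), host of SNORA24, had 719, 756 and 964 counts against 624, 385 and 607. Its mean level was 43.8 ± 6.43 CPM in control and 27.6 ± 7.17 CPM in knockdown, a log2 fold change of -0.67 ± 0.18 (edgeR adjusted p = 0.0268), again with no overlap.

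SNHG17 (chr20:38420588-38435353, minus), host of 4 SNORA71 copies, had 628, 613 and 680 counts in control and 557, 341 and 396 in knockdown. Its level was 34.6 ± 2.36 CPM in control and 22.0 ± 5.29 CPM in knockdown, a log2 fold change of -0.65 ± 0.16 (edgeR adjusted p = 0.0173). The knockdown libraries were all lower, though replicate 1, at 27.7 CPM, stood closer to the control range than the other two. SNHG7 (chr9:136721366-136728184, minus), host of SNORA17A and SNORA17B, had 633, 689 and 767 counts against 577, 404 and 488, with a log2 fold change of -0.58 ± 0.14 (edgeR adjusted p = 0.0149). SNHG15 (chr7:44983023-44986961, minus), host of SNORA9, had 550, 655 and 696 counts against 559, 386 and 441, with a log2 fold change of -0.53 ± 0.14 (edgeR adjusted p = 0.0244). Neither gene's groups overlapped in CPM.

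The other H/ACA hosts did not pass the threshold. SNHG3 (chr1:28505980-28510892, plus), host of SNORA73A and SNORA73B, which take part in cleavage of the ribosomal RNA precursor, had 1540, 1563 and 1762 counts in control and 1551, 1083 and 1264 in knockdown. Its log2 fold change was -0.40 ± 0.13 (edgeR adjusted p = 0.0537); the groups did not overlap, and it stood just outside the threshold, whereas SNHG8 with 0.0268 was the called member nearest to it. SNHG11, with 178, 151 and 161 against 156, 104 and 125 counts, had a log2 fold change of -0.43 ± 0.18 (edgeR adjusted p = 0.122), and its groups did not overlap in CPM. The scarcest tested member, SNHG9, had 17, 16 and 26 against 10, 8 and 14 counts. Among the tested members it had the lowest log2 fold change, -0.95, with the widest error, 0.38 (edgeR adjusted p = 0.107). EPB41L4A-AS1, with 260, 321 and 354 against 267, 226 and 303 counts, overlapped between the groups, and its log2 fold change was -0.30 ± 0.16 (edgeR adjusted p = 0.195). SNHG4 had 227, 300 and 176 against 308, 303 and 147 counts and a log2 fold change of 0.02 ± 0.24; replicate 3 was the lowest library of both groups.

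Among the 6 tested hosts of box C/D snoRNAs alone, 2 fell, SNHG1 and SNHG5, and the median log2 fold change was -0.40. SNHG1 (chr11:62851988-62855914, minus), the host of 8 snoRNAs from SNORD22 to SNORD31, had 1974, 2202 and 2257 counts in control and 1780, 1351 and 1575 in knockdown. Its control libraries lay close together at 116 ± 3.81 CPM and its knockdown libraries at 80.2 ± 10.8 CPM, a log2 fold change of -0.53 ± 0.11 (edgeR adjusted p = 0.0105). SNHG5 (chr6:85660950-85678748, minus), host of SNORD50A and SNORD50B, had 409, 417 and 521 against 323, 245 and 350 counts. Its level was 24.2 ± 3.09 CPM in control and 15.7 ± 3.21 CPM in knockdown, a log2 fold change of -0.62 ± 0.16 (edgeR adjusted p = 0.0217), with no overlap. SNHG19 (chr16:2154797-2155358, minus), host of SNORD60, had 187, 215 and 263 against 205, 130 and 139 counts. Its groups did not overlap in CPM, but its log2 fold change of -0.56 ± 0.19 did not pass the threshold (edgeR adjusted p = 0.0551).

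The remaining C/D hosts, ZFAS1, SNHG6 and SNHG16, were among the 6 most abundant members in CPM and overlapped between the groups. ZFAS1, which starts 248 bases from ZNFX1 on the opposite strand and hosts the SNORD12 family, had 2832, 3122 and 3520 counts in control and 3034, 2715 and 3975 in knockdown, a log2 fold change of -0.03 ± 0.15. It was the only member highest in knockdown replicate 3. SNHG6, host of SNORD87, had 1381, 1512 and 1727 against 1459, 1290 and 1702 counts and a log2 fold change of -0.12 ± 0.13. SNHG16, host of the SNORD1 family, had 1865, 1919 and 2627 against 1809, 1501 and 2235 counts and a log2 fold change of -0.28 ± 0.17 (edgeR adjusted p = 0.269).

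The 2 tested members with both kinds of snoRNA inside them differed. SNHG12 (chr1:28578538-28583132, minus), host of SNORA16A, SNORA44, SNORA61 and SNORD99, had 370, 398 and 478 counts in control and 315, 215 and 211 in knockdown. Its level was 22.4 ± 2.6 CPM in control and 12.6 ± 2.66 CPM in knockdown, a log2 fold change of -0.83 ± 0.16 (edgeR adjusted p = 0.00604), and every knockdown library was lower. GAS5 (chr1:173863900-173868882, minus), found as a transcript that accumulates in growth-arrested cells and the host of 11 snoRNAs, nearly all C/D, had 1700, 1909 and 2262 against 1815, 1497 and 2173 counts. Its level was 105 ± 12.8 CPM in control and 93.9 ± 20.7 CPM in knockdown, the groups overlapped, and the log2 fold change was -0.17 ± 0.15 (edgeR adjusted p = 0.465).

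None of the 3 tested hosts of small Cajal body RNAs passed the edgeR threshold, an adjusted p under 0.05 by DESeq2 or an unadjusted edgeR p under 0.05. SNHG10 had 117, 140 and 164 counts in control and 138, 85 and 127 in knockdown (log2 fold change -0.34 ± 0.2). SNHG20 had 299, 272 and 397 against 354, 264 and 285 (-0.18 ± 0.16), and SNHG21 had 83, 62 and 75 against 88, 89 and 67 (0.06 ± 0.21). The groups overlapped for all of them. Below the filter, SNHG25 had 4, 2 and 4 counts in control and 2, 0 and 0 in knockdown, SNHG22 had 4, 0 and 1 against 3, 5 and 3, and SNHG18 had a single count in control replicate 3.

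**Figure D2:**
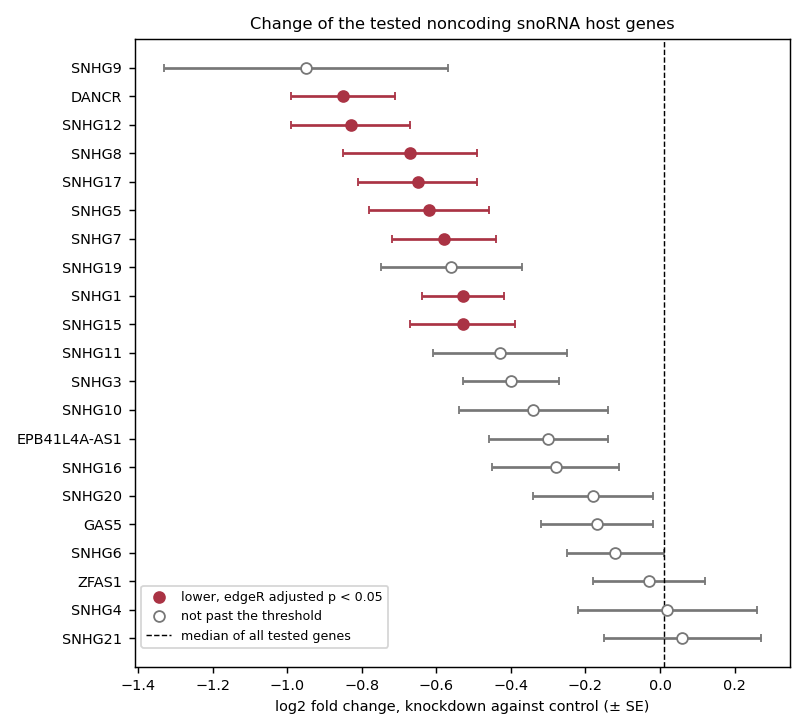
Log2 fold change of the 21 tested members (x axis, knockdown against control, ± SE), in order of size, with filled red points for those lower at an edgeR adjusted p under 0.05 and open points for the others. The dashed line is the median of all tested genes, 0.01; only SNHG4 and SNHG21 lie above 0.

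Levels per kilobase of annotated exon set the members in another order. In the control libraries ZFAS1 stood highest at 75.8 ± 6.45 CPM per kb, followed by SNHG6 at 66.5 ± 6.04 and SNHG8 at 47.4 ± 6.97 CPM per kb. ZFAS1 and SNHG6 lay within the sum of their SDs of each other, and SNHG8 lay below both. SNHG19, at 34.9 ± 5.2 CPM per kb, SNHG1, at 30.8 ± 1.01, and GAS5, next below with an SD of 3.52, could not be separated from one another by more than their spread. SNHG16 and SNHG3 were level at 21.5 ± 3.97 and 21.4 ± 1.51 CPM per kb, DANCR followed at 16.9 ± 1.81, and SNHG9 closed the order at 1.92 CPM per kb. The lengths are of all annotated exons together, so a member with many unused exons is understated. The members that fell therefore ranged from the third highest level, SNHG8, to SNHG12 at 5.24 ± 0.61 CPM per kb.

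The high and the low library were nearly the same across members. In 19 of 21 the lowest value was in knockdown replicate 2 (27.1% of all tested genes), and in 17 of 21 the highest was in control replicate 3 (26.0%). Summed over all 21 tested members, the level was 945, 932 and 1098 CPM in control replicates 1 to 3. In knockdown replicates 1 to 3 it was 815, 653 and 912 CPM. The next sums split members by their own calls, so the contrast between them was set by that choice. Summed over the 8 members that fell, the level was 336, 334 and 381 CPM in control replicates 1 to 3 and 259, 185 and 241 CPM in knockdown replicates 1 to 3. Summed over GAS5, SNHG6, SNHG16 and ZFAS1 it was 443, 439 and 538 against 403, 353 and 540 CPM, so knockdown replicate 3 matched the highest control library. The 76 tested ribosomal protein genes moved between libraries in the same way, at 56611, 55731 and 69405 against 58118, 48097 and 67579 CPM; the part of this library difference in the members' values was not tested beyond leaving libraries out. The calls depended on these libraries: without control replicate 3 only DANCR, SNHG12 and SNHG1 stayed below an edgeR adjusted p of 0.05, without control replicate 1 there were 5, and without both control replicate 3 and knockdown replicate 2 only DANCR remained.

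**Figure D3:**
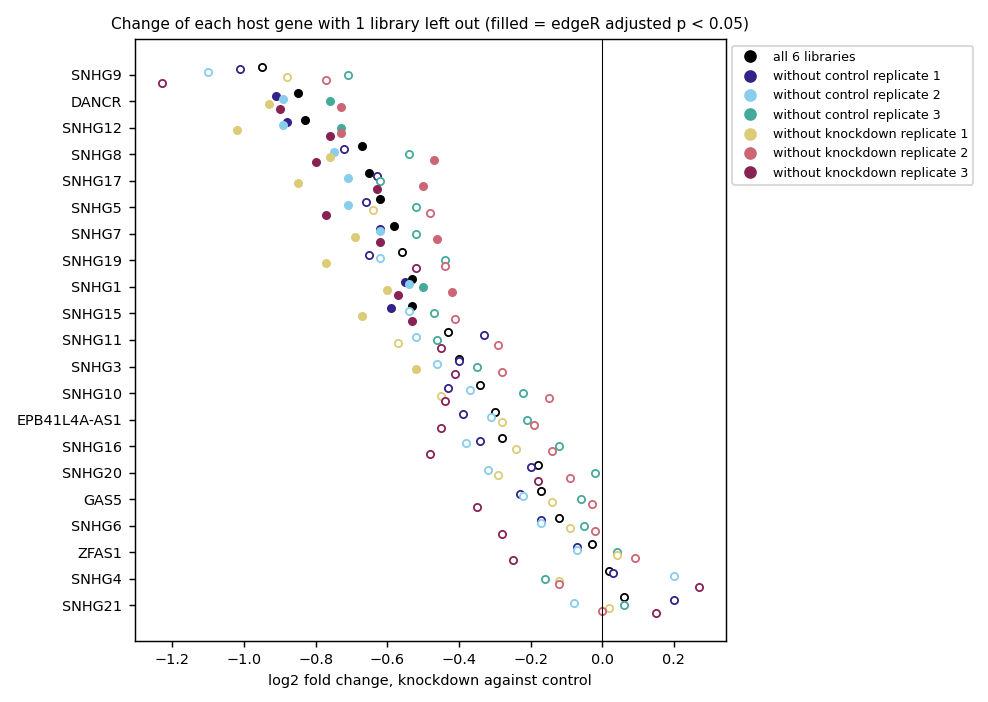
Log2 fold change of each tested member (x axis) with all 6 libraries (black) and with each library left out in turn (colours); filled points have an edgeR adjusted p under 0.05. DANCR, SNHG12 and SNHG1 are filled in all 6 fits that leave out a library, and SNHG5 in 2.

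Each of DANCR, SNHG12 and SNHG1 was called in 6 of 6 fits with a library left out, with log2 fold changes of -0.93 to -0.73 for DANCR, -1.02 to -0.73 for SNHG12 and -0.60 to -0.42 for SNHG1. SNHG7 was lost without control replicate 3 (adjusted p up to 0.0629). SNHG17 and SNHG8 were lost without control replicate 1 or 3, with edgeR adjusted p up to 0.0596 and 0.106. SNHG15 was lost in 3 of the 6 fits, those lacking control replicate 2, control replicate 3 or knockdown replicate 2, and SNHG5 in 4, those lacking control replicate 1 or 3 or knockdown replicate 1 or 2. Their log2 fold changes stayed below 0, at -0.67 to -0.41 for SNHG15 and -0.77 to -0.48 for SNHG5.

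Markers of fibroblasts moved with the groups and set 2 libraries apart. Summed over 12 markers, they were at 7.8, 10.5 and 8.91 CPM in control replicates 1 to 3 and at 51.5, 13.0 and 43.6 CPM in knockdown replicates 1 to 3; 5 of the 7 tested were higher and none was at 0. With knockdown replicates 1 and 3, which carried most of this signal, left out, 15 members were lower by edgeR and their median log2 fold change was -0.77, while 2220 of 14762 genes were lower in the same fit. The knockdown library kept there, replicate 2, is the one in which most members were lowest. That fit has 1 knockdown library and takes its spread from the controls. Leukocyte markers summed to 2.55 to 2.73 CPM in control and 1.64 to 3.32 CPM in knockdown, with NKG7 at 0, and endothelial markers to 17.5 to 21.2 and 16.4 to 21.6 CPM. The 15 urothelial markers summed to 2116, 2108 and 2515 CPM in control and 1322, 1003 and 1188 CPM in knockdown. Of the 6 tested, KRT8 (log2 fold change -1.27 ± 0.13) and KRT18 (-0.89 ± 0.13), which carry most of the sum, were lower, and the scarce UPK1A was higher (1.72 ± 0.4), a call lost without control replicate 1.

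The snoRNAs themselves were counted in separate rows. RefSeq places 56 snoRNA or small Cajal body RNA genes inside 24 members, 55 of which had a row, 7 were at 0 in all libraries, 25 had counts below the filter and 23 were tested. How RNA was selected for the libraries is not given in the sources used here, and reads in these rows cannot be told apart from reads of the unspliced host. Of the 23, SNORD80 and SNORA44 fell, the others did not pass the threshold, and the median log2 fold change was -0.53; of 50 tested snoRNA rows elsewhere 3 fell (SNORA70, SNORD14A and SNORA52), with a median of -0.32. These shares, 8.7% and 6.0%, were near the 7.58% of all tested genes. No tested row of either kind was higher by edgeR or DESeq2, and at an unadjusted edgeR p under 0.05 none of the 23 and 1 of the 50 were. SNORD80, in GAS5, had 95, 122 and 132 counts in control and 96, 78 and 66 in knockdown, with a log2 fold change of -0.62 ± 0.19 (edgeR adjusted p = 0.045), beside -0.17 for its host. SNORA44, in SNHG12, had 12, 13 and 17 against 8, 5 and 4 counts, with a log2 fold change of -1.36 ± 0.43 (edgeR adjusted p = 0.0466); DESeq2 gave 0.121. Both calls were lost in 5 of 6 fits with a library left out, every fit but that without knockdown replicate 1, where SNORD47 was called as well. Over all rows inside members, the count lower was 0 without control replicate 3 and 4 without knockdown replicate 1. Some rows called in these fits were outside the 23.

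Other rows with no overlap between the groups missed the threshold. SNORA16A, also in SNHG12, had 26, 27 and 22 counts in control and 15, 15 and 10 in knockdown, a log2 fold change of -0.98 ± 0.32 (edgeR adjusted p = 0.054). SNORD47, in GAS5, had 14, 15 and 17 against 11, 4 and 5 counts (-1.26 ± 0.44, edgeR adjusted p = 0.066). SNORD87, in SNHG6, had a log2 fold change of -0.92 ± 0.35 (edgeR adjusted p = 0.0857). In the other direction, SNORD25 in SNHG1 had a log2 fold change of 0.26 ± 0.38 and SNORA9 in SNHG15 one of 0.03 ± 0.35, although both hosts fell. Of 12 tested rows inside members that fell, 1 was lower.

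The other tested rows inside members did not pass the threshold either. Without overlap between the groups were SNORA61 in SNHG12 (log2 fold change -0.53 ± 0.2), SNORD104 in SNHG25 (-0.99 ± 0.36), SNORD22 in SNHG1 (-0.67 ± 0.36) and SNORD12B in ZFAS1 (-0.59 ± 0.37). With overlap were SNORA71A, SNORA71B and SNORA71C in SNHG17 (log2 fold changes -0.56, -0.10 and -0.33) and SNORA73A and SNORA73B in SNHG3 (-0.29 and -0.49). So were SNORD28 and SNORD31 in SNHG1 (-0.54 and -0.29), SNORD44, SNORD74 and SNORD78 in GAS5 (-0.65, -0.37 and -0.27), SNORD50B in SNHG5 (-0.18) and SCARNA15 in SNHG21 (-0.03). All but SNORD25 and SNORA9 of the 23 were thus below 0, most with an SE above 0.30. SNORA26 in DANCR and SNORA24 in SNHG8, picked after their values were seen, were too scarce for the filter. SNORA26 had 13, 10 and 17 counts in control and 2, 1 and 4 in knockdown, and without the filter its log2 fold change was -2.53 ± 0.67 (edgeR adjusted p = 0.00272, where 5.44% of 25308 genes were lower and 6.52% higher). SNORA24 had 15, 8 and 11 against 3, 2 and 5 counts, and without the filter -1.81 ± 0.65 (edgeR adjusted p = 0.0456). The edgeR adjusted p-values differed greatly between the fits with and without the filter: that of DANCR was 0.00272 with it and 3.07e-08 without. The p-values of these scarce rows therefore cannot be set beside those of the filtered fit.

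The H/ACA snoRNAs SNORA26, SNORA24 and SNORA44, all of hosts that fell, are shown as annotated in GENCODE 29 on GRCh38, 5′ to 3′. The annotation used for the counting is not given, so the counted intervals may differ from these. SNORA26 lies at chr4:52713249-52713370 (plus, 122 bases), SNORA24 at chr4:118279190-118279320 (plus, 131 bases) and SNORA44 at chr1:28580381-28580512 (minus, 132 bases). Capitals mark the triplet 3 bases before the 3′ end, where H/ACA snoRNAs carry the box that gives the class its name.
SNORA26: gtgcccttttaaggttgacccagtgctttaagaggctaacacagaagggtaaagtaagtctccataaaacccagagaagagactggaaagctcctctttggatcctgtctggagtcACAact
SNORA24: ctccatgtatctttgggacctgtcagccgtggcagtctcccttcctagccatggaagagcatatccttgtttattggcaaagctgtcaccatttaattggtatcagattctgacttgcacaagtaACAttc
SNORA44: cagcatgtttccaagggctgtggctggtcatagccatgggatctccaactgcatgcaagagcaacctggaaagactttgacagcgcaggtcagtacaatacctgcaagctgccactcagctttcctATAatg
SNORA26 and SNORA24 carried ACA there and SNORA44 carried ATA. Each is much shorter than the exons of its host (2285 bases in DANCR, 923 in SNHG8, 4266 in SNHG12).

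**Figure D4:**
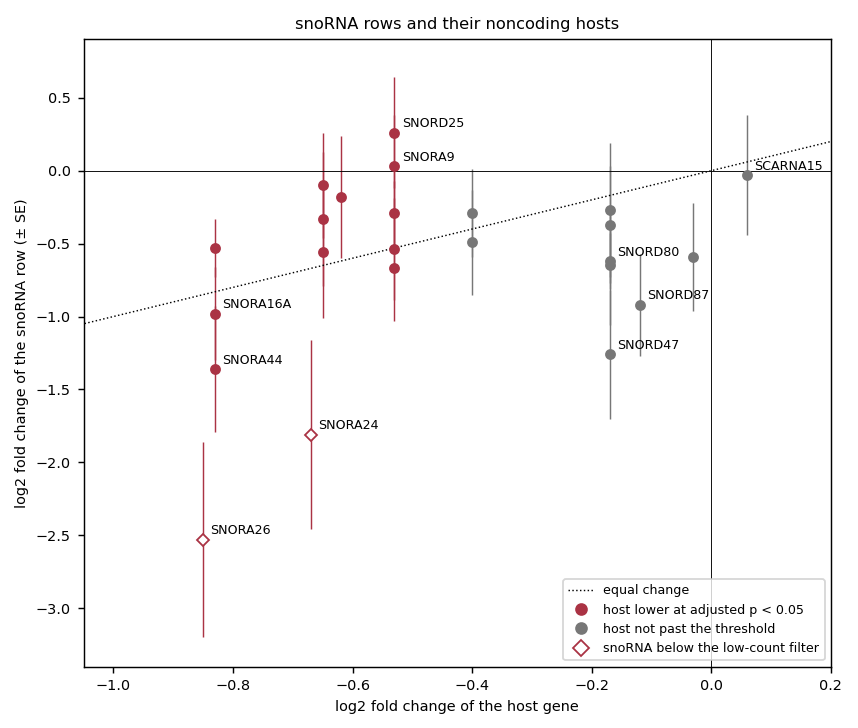
Log2 fold change of each tested snoRNA row (y axis, ± SE) against that of the tested member that holds it (x axis), in red where the host was lower at an edgeR adjusted p under 0.05. Diamonds mark SNORA26 and SNORA24, which were below the low-count filter, with y values from the fit without the filter. SNORD104 is not shown, because its host SNHG25 was not tested. The dotted line marks equal change; SNORD25 and SNORA9 lie above 0 although their hosts fell, and SNORD47, SNORD80 and SNORD87 lie below it, inside hosts that did not pass the threshold.

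Coding genes beside or across the members did not share one direction. Of 13 tested neighbours, 2 fell and 1 rose, and their median log2 fold change was 0.00. SLC3A2, the heavy chain of amino acid transporters, starts 188 bases from SNHG1 on the opposite strand and was at 497, 489 and 597 CPM in control and 275, 193 and 261 CPM in knockdown, a log2 fold change of -1.12 ± 0.14 (edgeR adjusted p = 0.000725). RCC1, the nucleotide exchange factor of Ran, overlaps SNHG3 on the same strand with a start 37 bases away, and averaged 169 ± 10.2 CPM in control and 127 ± 15.8 CPM in knockdown (-0.41 ± 0.11, edgeR adjusted p = 0.0286), close to the -0.40 of SNHG3. EPB41L4A, across from EPB41L4A-AS1, rose from 23.5 ± 1.24 to 32.0 ± 4.12 CPM (0.45 ± 0.12, edgeR adjusted p = 0.0298). The other 10 did not pass the threshold. Genes on the opposite strand that overlap a member are given as across it. The log2 fold change on that strand was 0.01 ± 0.15 for ZNFX1 across ZFAS1 and 0.34 ± 0.23 for ZBTB37 across GAS5. For TRNAU1AP across SNHG12 it was -0.30 ± 0.11, and for GLRX5 across SNHG10 it was -0.23 ± 0.12. It was 0.00 ± 0.1 for TRAF7 beside SNHG19, -0.15 ± 0.14 for RPS2 beside SNHG9, 0.73 ± 0.34 for FAM69B across SNHG7 and -0.06 ± 0.12 for SIL1 across SNHG4. On the same strand it was 0.11 ± 0.1 for MATR3, which overlaps SNHG4, and 0.26 ± 0.12 for SEC14L1, which overlaps SNHG20. The strandedness of the counting is not given, so reads of overlapping genes on opposite strands cannot be told apart, nor reads of RCC1 and SNHG3 where their exons overlap. The SLC3A2 call held in 6 of 6 fits with a library left out, RCC1 missed the threshold when control replicate 1, control replicate 3 or knockdown replicate 2 was left out, and EPB41L4A when any of the control replicates or knockdown replicate 2 was.

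The rest of the snoRNA pathway was described through lists of genes by role. These lists were chosen with earlier results of these data known, so their counts are not independent evidence. The list counts are to be read beside the 7.58% lower and 9.71% higher over all 13896 tested genes. Among 22 tested proteins of the mature particles and their assembly, 3 were lower, with a median log2 fold change of -0.21: the C/D core proteins NOP58 (-0.55 ± 0.12, edgeR adjusted p = 0.00986) and NOP56 (-0.51 ± 0.12) and DKC1, the pseudouridine synthase of H/ACA particles (-0.55 ± 0.12). The count was 6 without knockdown replicate 3. NOP58 and DKC1 were called in every fit with a library left out, and NOP56 was lost without control replicate 1 or 3. The row of the C/D methyltransferase FBL held 1.54 ± 0.433 CPM in control and 1.57 ± 0.129 CPM in knockdown, too little for a core protein of these particles, so it is not read as the expression of FBL; how its reads were assigned was not tested. Of 48 tested coding hosts of snoRNAs, 8 were lower (median -0.13), all of them among the 30 that are not ribosomal protein genes, such as WDR74 (-0.59 ± 0.15), DKC1, NOP58 and NOP56. Leaving out a single library brought that count to 3 (control replicate 1), 5 (control replicate 2), 2 (control replicate 3) or 4 (knockdown replicate 2). LRRC75A-AS1, a noncoding snoRNA host under another symbol, was at 412, 390 and 474 CPM in control and 384, 347 and 426 CPM in knockdown, a log2 fold change of -0.14 ± 0.12 with overlapping groups.

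Factors of ribosome assembly, the step that snoRNAs serve, were lower in 18 of 32 cases, and all 32 had log2 fold changes below 0 (median -0.43). LYAR (-0.86 ± 0.15), RRP12 (-0.80 ± 0.15), RRS1 (-0.75 ± 0.13) and RRP9 (-0.72 ± 0.17), a protein of the snoRNP that binds SNORD3, had the lowest values of those called. The count was 10 without control replicate 1 and 9 without control replicate 3. Of 76 tested ribosomal protein genes 2 were lower, RPS26 (-0.55 ± 0.15) and RPL9 (-0.42 ± 0.13), with a list median of -0.10. Both have many near-identical copies, so their counts are uncertain. Neither was called once control replicate 1, control replicate 3 or knockdown replicate 2 was left out. With the replicate number as a block, 18 ribosomal protein genes and 2496 of all tested genes were lower by edgeR. Of 18 other mRNAs with TOP starts none was lower by edgeR or DESeq2, 1 was lower at an unadjusted p under 0.05, and EIF4B, a translation initiation factor, was higher (0.32 ± 0.1, edgeR adjusted p = 0.0439). EIF4B lost that call when any of the control replicates or knockdown replicate 2 was left out. Of 17 regulators of TOP translation and mTOR, 3 were lower: AKT1S1 (-0.54 ± 0.13) and MLST8 (-0.49 ± 0.13), both subunits of mTOR complexes, and EIF4EBP1 (-0.51 ± 0.14), a repressor of translation initiation. The count was 1 without control replicate 1 or knockdown replicate 2 and none were called without control replicate 3.

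Nonsense-mediated decay was covered by its factors and by mRNAs known as its targets. Of 21 tested factors 6 were lower (median -0.23), among them DHX34 (-0.68 ± 0.19), MAGOHB (-0.60 ± 0.15), SMG9 (-0.45 ± 0.12) and SMG5 (-0.44 ± 0.12), while the central helicase UPF1 was at 145 ± 1.8 CPM in control and 124 ± 13.5 CPM in knockdown (-0.23 ± 0.1, edgeR adjusted p = 0.155). The count was 1 without control replicate 1, 0 without control replicate 3 by edgeR, and 4 without control replicate 2 or knockdown replicate 2. Of 9 target mRNAs 5 were lower (median -0.51), led by GADD45A (-1.23 ± 0.15), DDIT3 (-0.96 ± 0.15), UPP1 (-0.70 ± 0.11) and GADD45B (-0.57 ± 0.14). These genes are also known as stress-response or metabolic genes. The count was 3 without control replicate 1 or 3, and GADD45A, DDIT3 and UPP1 were called in every fit with a library left out. Of 19 tested noncoding RNAs of other kinds, none was lower by edgeR or DESeq2 and 2 were at an unadjusted p under 0.05. Among them the nuclear transcript MALAT1 was higher, at 283, 332 and 210 CPM in control and 406, 453 and 358 CPM in knockdown (0.56 ± 0.15, edgeR adjusted p = 0.0288), a call that needed control replicates 1 and 3 and knockdown replicates 1 and 2. Their median was 0.01. None of the lists of particle proteins, coding hosts, assembly factors, ribosomal proteins, TOP regulators, decay factors or decay targets held a gene that was higher by edgeR with all libraries, by DESeq2 or at an unadjusted edgeR p under 0.05. Other edgeR fits did hold some: with GC content and length trends removed, 1 particle protein, 2 coding hosts and 3 ribosomal protein genes were higher, and without knockdown replicate 3 so was 1 coding host. Without knockdown replicates 1 and 3, 1 coding host, 1 decay factor and 2 TOP regulators were. Removing those trends also brought the lower calls to 8 particle proteins, 14 coding hosts, 28 assembly factors, 14 decay factors and 9 TOP regulators. In that fit 2310 of all 13896 tested genes were lower, against 1053 in the main fit. The median log2 fold change of all tested genes was -0.04 there.

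**Figure D5:**
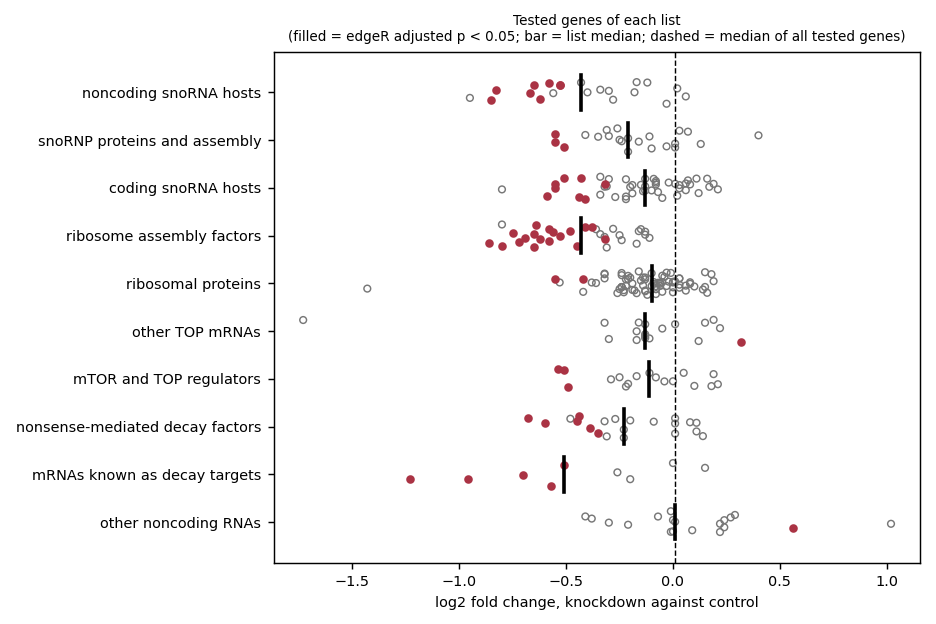
Log2 fold change (x axis, knockdown against control) of every tested gene in the noncoding snoRNA hosts and in each list of related genes (rows); filled points have an edgeR adjusted p under 0.05, black bars are list medians and the dashed line is the median of all tested genes. The noncoding hosts and the ribosome assembly factors share a median of -0.43, while ribosomal protein genes sit around -0.10. Members and lists were chosen with earlier results of these data known.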

How the data were processed

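Gene-level RNA sequencing counts of 6 T24 libraries were used. The authors deposited a table of 54261 gene symbols with raw whole-number counts; HISAT2 version 2.0.4 and GRCh38 were used per the submitters' processing notes, and nothing used here states the counter, its annotation or the strandedness. Groups came from the titles. After filterByExpr and TMM scaling, groups were compared by edgeR's quasi-likelihood test (glmQLFit, robust; edgeR 4.0.16, limma 3.58.1, R 4.3.3), p-values were adjusted by Benjamini-Hochberg over the 13896 genes kept, and 0.05 was the threshold. Standard errors are the fold change divided by the square root of F, and CPM uses TMM-scaled library sizes. The test was checked on simulated data. It recovered 38% of 1.5-fold changes, 90% of 2-fold, 86% of 3-fold and 98% of 4-fold changes, and 5.45% of its calls were false. A gene that did not pass the threshold may therefore still have changed. Alternatives were DESeq2 1.42.0, RLE scaling, other filters, a replicate block, each library left out and a threshold of 0.01. Coordinates and exon lengths came from GENCODE 29, promoters and snoRNA positions from RefSeq (GRCh38.p14). Members and lists were chosen with earlier results of these data known. Named were all members, the tested snoRNA rows inside them, rows elsewhere that were called, tested coding neighbours, and up to 4 called genes per list by size; UPF1, FBL, UPK1A, the keratins, EPCAM and CDH1 were added after their values were seen. Chi-square per degree of freedom between replicates was 2.56 or more, so each library counted as 1 sample. Floors cover counting error only.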

Additional observations from a re-analysis of the deposited data

How the results depend on the processing

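No member was called higher under any setting tried, and the MTHFD2 call held in all of them. RLE scaling and a filter of 1 CPM in 3 libraries gave the same 8 lower members, and DESeq2 and no filter gave 10, adding SNHG3 and SNHG19. With 1 library left out, 3 to 9 members were lower, their median log2 fold change was -0.57 to -0.29, and 986 to 2645 genes changed in all (368 to 1213 lower), against 2402. At a threshold of 0.01, 2 members and 749 genes (277 lower) were called. With knockdown replicates 1 and 3 left out the median was -0.77, 15 members were lower and 4432 genes changed (2220 lower). Chosen after seeing the data, leaving out control replicate 3 and knockdown replicate 2 together left 1 member lower, DANCR, and 395 changed genes (160 lower). In that fit 2 assembly factors and 3 decay targets were lower, and no particle protein, coding host, decay factor or TOP regulator was. Removing GC content and length trends, known for 90.3% of tested genes and also chosen after seeing the data, gave 9 members and 3857 genes, with 2310 lower and 1547 higher. The cause of these differences was not tested; the fits with fewer libraries also have fewer degrees of freedom. With the replicate number as a block 13 members were lower and 5062 genes changed (2496 lower). Whether the numbers pair the libraries was not settled. Deviations of same-numbered libraries correlated at -0.0204, 0.297 and 0.353 for replicates 1 to 3. Control replicate 2 with knockdown replicate 3 gave -0.259, and control replicate 3 with knockdown replicate 2 gave -0.405. Control replicate 1 correlated best with knockdown replicate 2, at 0.165. Deviations were taken from each group's mean, so these values are not independent of one another. At this depth SNHG18, SNHG22, SNHG24, SNHG25 and most snoRNA rows were too scarce to test.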
